A study of Mus musculus with 32 samples.

Results

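The homeobox genes described here are the numbered members of 16 mouse families: Pbx, Meis, Irx, Otx, Gbx, Emx, Vax, Vsx, Pitx, Alx, Prrx, Dlx, Msx, Barx, Isl and Cdx. They were taken by symbol, as any gene named by a family name followed by a number, and this rule used no RNA level. The families themselves were chosen with earlier results of these data known. The rule gave 47 genes of the 24028 gene symbols with a value. RNA levels were measured by RNA-seq in WT mouse embryonic stem cells (mESCs), pluripotent cells of the early embryo, and in mESCs labelled Eed-/-, with 1 library per genotype. EED is a core subunit of PRC2, the Polycomb complex that methylates histone H3 at lysine 27. Both cultures were grown without feeder cells, on gelatin in medium with serum and the cytokine LIF. Both RNA-seq libraries are labelled as the TT2 line, whereas Eed-/- samples of other assays carry a different strain label. The kind of Eed mutation and the number of clones behind the Eed-/- culture are not described in the sources used here. The study cites an earlier report where it introduces its Eed-deficient mESCs. The Eed transcript itself had FPKM values of 63.0 in WT against 70.9 in the other library, so the mutant sample is called the library labelled Eed-/-. An RNA level does not tell whether the protein was made. The study assessed the loss of EED separately, through its histone mark, and reports that western blot and ChIP-seq bore it out.

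Homeobox genes encode transcription factors that bind DNA through a homeodomain and give cells of the embryo their regional and lineage identity. In pluripotent cells many of them are kept silent and carry H3K27me3, the mark placed by PRC2. Many also lie in DNA methylation valleys (DMVs), long regions almost free of DNA methylation, and the series asks how Polycomb keeps such regions unmethylated. The families differ in their roles. MEIS and PBX proteins are cofactors that bind DNA together with HOX proteins, whereas OTX, GBX, EMX, VAX and VSX proteins pattern the brain and eye. PITX, ALX and PRRX proteins act in limbs, face and body asymmetry, DLX, MSX and BARX proteins in the head skeleton and teeth, and CDX proteins in the posterior body.

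Sequences just upstream of a start site are shown for 3 genes, to set the letters of genes that rose beside those of a gene expressed in both libraries. Each is the 250 bases before the start in the RefSeq promoter table of GRCm38.p6, found by exact match at a single place in NCBIM37, the assembly also called mm9. CpG dinucleotides, the sites of DNA methylation, are in capitals. Meis1 (chr11:18918973-18919222, minus strand) and Otx2 (chr14:49287320-49287569, minus strand) encode a HOX cofactor and a factor of the anterior brain.
Meis1: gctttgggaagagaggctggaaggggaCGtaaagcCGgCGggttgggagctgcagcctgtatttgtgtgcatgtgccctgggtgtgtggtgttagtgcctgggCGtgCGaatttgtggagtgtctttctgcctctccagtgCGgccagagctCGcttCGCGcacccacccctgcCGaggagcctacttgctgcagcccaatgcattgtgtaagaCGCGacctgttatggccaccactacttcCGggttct
Otx2: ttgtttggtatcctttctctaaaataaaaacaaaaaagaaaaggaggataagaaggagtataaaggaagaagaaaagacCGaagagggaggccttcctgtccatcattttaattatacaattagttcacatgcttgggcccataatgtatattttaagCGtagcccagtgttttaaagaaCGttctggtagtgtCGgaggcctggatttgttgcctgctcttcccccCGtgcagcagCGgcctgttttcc
Pbx2 (chr17:34728954-34729203, plus strand), a broadly expressed HOX cofactor, is the gene with a high level in both libraries. Its window is intronic to a transcript that starts further upstream, and none of the 3 windows holds an annotated exon.
Pbx2: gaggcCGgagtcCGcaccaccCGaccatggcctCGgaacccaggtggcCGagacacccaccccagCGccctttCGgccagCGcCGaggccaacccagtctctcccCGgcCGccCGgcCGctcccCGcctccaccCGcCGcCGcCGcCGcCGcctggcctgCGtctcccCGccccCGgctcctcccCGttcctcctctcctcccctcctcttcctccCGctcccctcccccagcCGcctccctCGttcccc
The Meis1 window holds 13 CpG and the Otx2 window 6, with GC contents of 59.6% and 42.0%. The Pbx2 window holds 27 CpG and has a GC content of 77.6%. Over 16892 such windows of measured genes the median was 10 CpG, and 93.1% of them hold the letters CG, which read the same on both strands. The genes Meis1 and Otx2 thus lie on either side of that median, at percentiles 58.4 and 38.7, and Pbx2 lies at percentile 89.9. Windows were matched for 27 of the 47 genes, too few for a summary over the families. Meis1 and Otx2 were picked for display after their values were seen.

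Levels are given as FPKM, a number of fragments divided by the length of the transcript and by the mapped reads of the library, so that genes of different length can be compared. Low FPKM values fell on whole-number steps, which put the depth at about 7230000 fragments in WT against 6450000 in the library labelled Eed-/-. On a 2 kb transcript, 2 FPKM then stand for 26.3 and 23.5 fragments. Where a gene has several transcripts, its fragment number is approximate and tends to be too high, since the longest coding transcript was used. Ratios are those of whole fragments scaled to depth, so with few fragments they differ somewhat from ratios of FPKM. Neither genotype has a replicate, no test was made, and the 95% intervals cover counting error alone. Changes are differences in log2(FPKM + 1) after quantile normalization, taken as the library labelled Eed-/- minus WT, and "rose" or "fell" is written of changes of at least 2-fold on this scale. On this scale the changes of low genes come out smaller than their ratios. Some chromosomes shifted as a whole between the libraries, so the 2 cultures may differ in more than the labelled genotype. The median change over their genes was -0.29 on chromosome 1, -0.38 on chromosome 8 and 0.46 on chromosome X. On the other autosomes it lay between -0.07 and 0.12. What lies behind these shifts was not tested. In bulk RNA, fewer cells that express a gene and less RNA per cell cannot be told apart.

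Most of the 47 genes were at low or undetected levels in both libraries, and 5 of them rose. In WT, Gbx2 and Pbx2 stood far above the rest, with deposited FPKM values of 17.3 and 11.9, and Meis3 (2.42) and Pbx4 (2.24) were the other genes at 2 or above. Over the 47 genes the median deposited FPKM was 0.228 in WT against 0.556 in the library labelled Eed-/-. By normalized FPKM, 4 genes were at 2 or above in WT against 10 in the library labelled Eed-/-, as were 38.7% of all symbols in either library. Gbx2, Pbx2 and Meis3 were at this level in both libraries, and 36 genes were in neither library. In the library labelled Eed-/- the levels in falling order included Pbx2 (13.1), Gbx2 (12.2), Otx2 (9.90), Meis1 (6.27), Vax2 (5.44), Meis2 (3.53), Meis3 (2.24), Irx2 (2.17) and Pbx3 (1.97, or 2.04 when normalized).

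**Figure D1:**
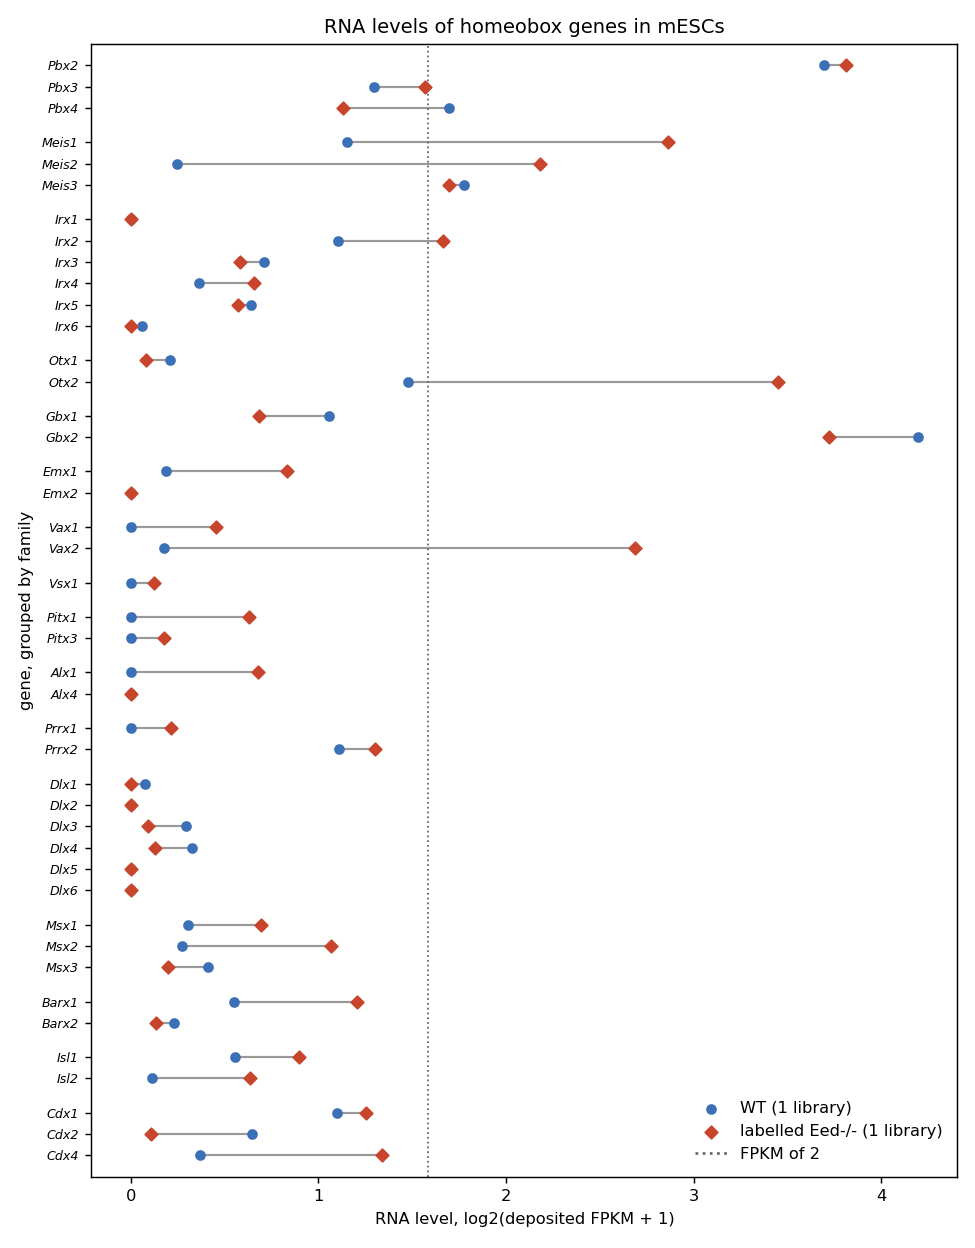
Deposited FPKM of 43 of the 47 genes, grouped by family, on a log2(FPKM + 1) axis, with a circle for the WT library and a diamond for the library labelled Eed-/-, joined by a line. The dotted line marks an FPKM of 2. The long lines are those of Meis1, Meis2, Otx2 and Vax2, while Gbx2 and Pbx2 lie to the right in both libraries and most other genes lie near 0.

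A mean normalized FPKM of at least 0.1 was reached by 36 of the 47 genes. Of these, 5 (13.9%) rose by at least 2-fold, as 3.80% of 14835 genes did, and 0 fell by at least 2-fold, as 3.98% of genes did. With a pseudocount of 1, a 2-fold fall needs a normalized FPKM of at least 1 in WT, which 11 of the 47 genes reached. The other genes could not fall by this measure, so the 0 is not comparable with the 3.98%. Higher by any amount were 24 of the 36, beside 50.9% of the 14835 genes. Without this filter the count was also 5, of 47, beside 2.35% of all 24028 symbols. Among the 5 genes were Vax2 (2.58), Otx2 (2.07), Meis2 (1.97) and Meis1 (1.80). Each of the 5 went from a normalized FPKM under 2 to one of at least 2, as 1.02% of all symbols did with a 2-fold change. Each also passed a 3-fold threshold, which 1.02% of filtered genes did in this direction. The summed deposited FPKM of the 47 genes was 49.3 in WT against 77.5 in the library labelled Eed-/-. Most of this difference lay in the 5 genes that rose, which follows in part from their being chosen by that rise. Over all 47 genes the median change was 0.17, and over all 24028 symbols it was -1.83e-05, practically no change. The nearest gene below the threshold was Cdx4, at 0.99.

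**Figure D2:**
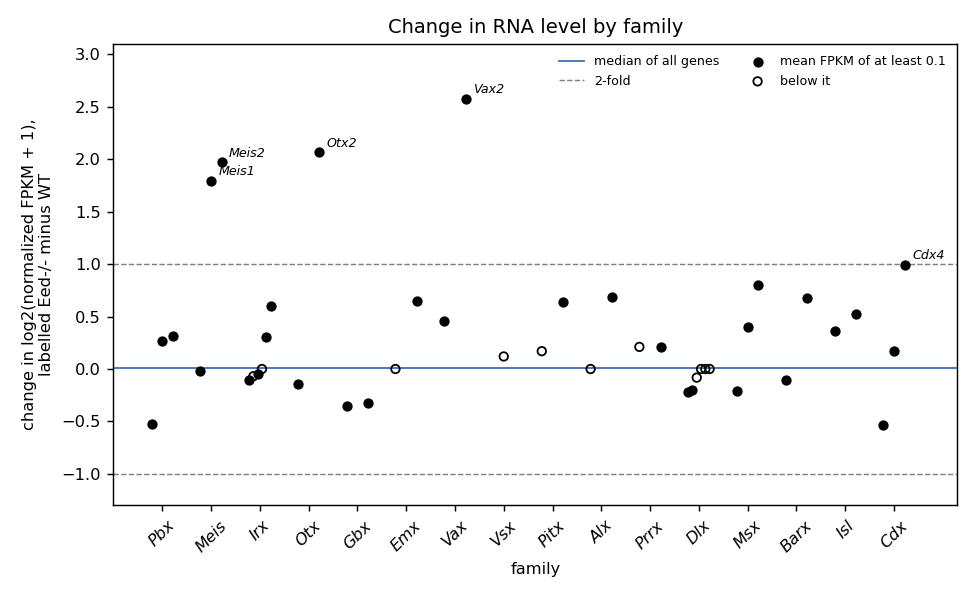
Change in log2(normalized FPKM + 1), the library labelled Eed-/- minus WT, for 43 of the 47 genes by family. Filled circles are the 32 genes whose mean normalized FPKM was at least 0.1, open circles the other 11, the solid line is the median of all genes with such a mean and the dashed lines mark 2-fold. Vax2, Otx2, Meis2 and Meis1 lie above the upper dashed line, Cdx4 lies at 0.99, and no gene lies below the lower one.

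Among the HOX cofactors, Meis1 and Meis2 rose, whereas Meis3 and the Pbx genes did not. Meis1 (chr11:18780433-18918961), a regulator of blood stem cells and proximal limb, had 1.22 FPKM in WT against 6.27 in the library labelled Eed-/-. These values stand for about 29 and 131 fragments, and their ratio was 5.06 (counting interval 3.37 to 7.85). Meis2 (chr2:115688800-115891575), its close paralog, had FPKM values of 0.187 and 3.53, about 5 and 81 fragments. The ratio of Meis2 was 18.2 (7.47 to 57.4), so the counting intervals of both genes lay far above 1. Meis3 had FPKM values of 2.42 and 2.24, a difference within counting error whose sign depends on the scaling (-0.01 in the normalized values and 0.03 with median-ratio scaling). Summed over the family, the deposited FPKM of the Meis genes was 3.83 in WT against 12.0 in the library labelled Eed-/-. Meis3 held most of this sum in WT, and Meis1 and Meis2 held most of it in the other library.

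The PBX proteins are the dimer partners of MEIS and HOX proteins, and 0 of the 4 Pbx genes passed 2-fold. Pbx2 (chr17:34728211-34734345) had the highest level among them, with FPKM values of 11.9 and 13.1 and a ratio of 1.09 (0.91 to 1.31). It overlaps Gpsm3 on the same strand, so its value is uncertain. Pbx3 had FPKM values of 1.46 and 1.97 (change 0.32), a difference within counting error. Pbx4, which is known from the testis, had 2.24 and 1.19, about 34 and 16 fragments. Its ratio of 0.53 (0.27 to 0.98) lay beyond counting error by fragments scaled to depth. On the normalized scale the same interval ran from -1.05 to 0.03 and held 0. The change of Pbx4 was -0.52, beside a median change of -0.38 over the genes of chromosome 8, where it lies. Relative to that median, the change of Pbx4 was -0.14.

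Otx2 and Gbx2 encode factors that meet at the midbrain-hindbrain boundary and repress each other there, and their levels differed between the libraries in opposite directions. In mESCs, Gbx2 is known as a LIF target of the naive state and Otx2 as a factor of the passage from naive to primed pluripotency. Otx2 (chr14:49277354-49287319) had 1.79 FPKM in WT against 9.90 in the library labelled Eed-/-, about 27 and 134 fragments, with a ratio of 5.56 (3.66 to 8.75). Gbx2 (chr1:91824537-91829865) had 17.3 and 12.2, about 509 and 319 fragments, with a ratio of 0.70 (0.61 to 0.81). Gbx2 thus stood far above Otx2 in WT, and the 2 levels came near each other in the other library. The change of Gbx2 was -0.32, under the 2-fold threshold, beside a median of -0.29 over the genes of chromosome 1, and relative to that median it was -0.03. The genes of chromosome 14, where Otx2 lies, had a median change of -0.07. The paralogs were low, as Otx1 had FPKM values of 0.157 and 0.0586 and Gbx1 had 1.08 and 0.608, both within counting error.

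Of the forebrain and eye genes, Vax2 stood apart. Vax2 (chr6:83661258-83688298), which gives the ventral retina its identity, had 0.131 FPKM in WT against 5.44 in the library labelled Eed-/-. With its single annotated transcript this is 1 fragment against 37, and the ratio of 41.5 has a counting interval of 6.99 to 1682. The non-coding RNA Vax2os, transcribed beside Vax2, had FPKM values of 0.110 and 1.42 and rose by 1.13. Its fragments are unknown, since the annotation has no such symbol. An overlap of Vax2os with Vax2 could therefore not be checked, and the value of Vax2 carries this uncertainty. Vax1, needed for the optic nerve, was listed at 0 in WT and at 0.369 FPKM in the library labelled Eed-/-, about 5 fragments. Emx1, a gene of the dorsal forebrain, had 0.139 and 0.779, about 1 and 7 fragments (ratio of fragments 7.85, interval 1.01 to 354), while its paralog Emx2 was listed at 0 in both libraries. The retinal gene Vsx1 was listed at 0 in WT and at 0.0915 FPKM in the library labelled Eed-/-, within counting error.

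In the Pitx, Alx and Prrx families, Pitx1, Pitx3, Alx1 and Prrx1 were listed at 0 in WT. Pitx1, a determinant of the hindlimb, was listed at 0 in WT and at 0.546 FPKM in the library labelled Eed-/-, about 8 fragments. Pitx3, a gene of dopaminergic neurons and lens, was listed at 0 and 0.129, about 1 fragment. The craniofacial gene Alx1 was listed at 0 in WT and at 0.603 FPKM in the library labelled Eed-/-, about 10 fragments. Its paralog Alx4 was listed at 0 in both libraries. Of the limb mesenchyme genes, Prrx1 was listed at 0 and 0.162, about 7 fragments, and Prrx2 had 1.16 and 1.47, within counting error. A listed 0 may also be an estimate that failed, and the fragments of Pitx1, Alx1, Prrx1 and Vax1 were beyond counting error against 0 in WT. These genes have several annotated transcripts, and the longest coding one was used (6527 bp for Prrx1). A shorter one would give fewer fragments, so these calls are uncertain.

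The Dlx genes, which pattern the jaw and specify forebrain interneurons, had values under 0.3 FPKM in both libraries. Dlx2, Dlx5 and Dlx6 were listed at 0 in both libraries, and Dlx1 had 0.0532 FPKM in WT and was listed at 0 in the library labelled Eed-/-. Dlx3 had 0.228 and 0.0639, and Dlx4 had 0.253 and 0.0944, each about 4 fragments against 1 and within counting error. None of the 6 Dlx genes had a higher value in the library labelled Eed-/-, and their summed FPKM was 0.534 and 0.158. For a transcript of 2 kb, 3 fragments correspond to an FPKM of 0.228 in WT against 0.255 in the library labelled Eed-/-, so differences among the Dlx genes were not detectable at this depth. The RNAs opposite Dlx1 and Dlx6 were also at or near 0, with Dlx1as listed at 0 and 0.0593 and Dlx6os1 listed at 0 in both.

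The Msx genes, targets of BMP signalling in neural crest and limb, had values under 1.1 FPKM. Msx2 had 0.209 FPKM in WT against 1.09 in the library labelled Eed-/-, about 3 and 16 fragments, with a ratio of 5.98 (1.71 to 32). Its change of 0.80 did not reach 2-fold on the log2(FPKM + 1) scale. Msx1 had 0.237 and 0.619, and Msx3, a gene of the dorsal neural tube, had 0.328 and 0.147. Barx1, a gene of tooth and stomach mesenchyme, had 0.467 and 1.31, about 4 and 10 fragments, and Barx2 had 0.171 and 0.0961. The values of Msx1, Msx3, Barx1 and Barx2 were within counting error. Isl1 and Isl2, LIM-homeodomain genes of motor neurons, had 0.471 and 0.858 (Isl1) and 0.0826 and 0.556 (Isl2), also within counting error.

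The Irx genes, which lie in a cluster on chromosome 13 (Irx1, Irx2 and Irx4) and another on chromosome 8 (Irx3, Irx5 and Irx6), did not move as a family, and 0 of the 6 passed 2-fold. Irx2 had 1.15 FPKM in WT against 2.17 in the library labelled Eed-/-, about 20 and 34 fragments, with a ratio of 1.91 (1.07 to 3.49) and a change of 0.60. Irx4, a gene of the heart ventricle, had 0.286 and 0.576 (0.31), within counting error, and Irx1 was listed at 0 in both libraries. On chromosome 8, Irx3 had 0.637 and 0.500, Irx5 had 0.560 and 0.488, and Irx6 had 0.0434 and was listed at 0 in the library labelled Eed-/-. The changes of Irx3 (-0.11) and Irx5 (-0.05) were within counting error and became 0.28 and 0.33 relative to the median of chromosome 8. The sign of the change depended on the scaling in Irx3, Irx5 and Meis3, that is, in 3 of the 36 genes.

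The Cdx genes, which regulate Hox genes along the posterior axis, differed among themselves. Cdx4 had 0.292 FPKM in WT against 1.53 in the library labelled Eed-/-, about 4 and 18 fragments, with a ratio of 5.04 (1.66 to 20.5). Its change of 0.99 stands beside a median of 0.46 over the genes of chromosome X, where it lies, and its neighbours 4930519F16Rik (1.28) and Chic1 (1.41) both rose. Relative to the chromosome the change of Cdx4 was 0.53. Cdx2, also a trophectoderm gene, had 0.562 and 0.0788, about 8 fragments and 1, with a ratio of 0.14 (0.0032 to 1.04), and Cdx1 had 1.14 and 1.38. Both were within counting error.

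**Figure D3:**
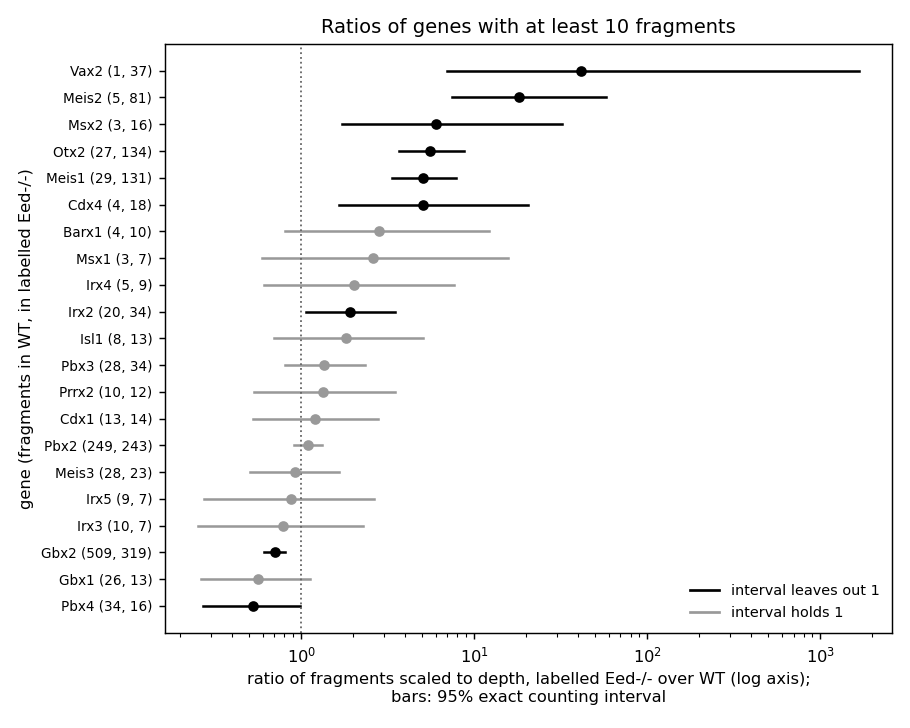
Ratio of fragments scaled to depth, the library labelled Eed-/- over WT, on a log axis, for named genes listed above 0 in WT with at least 10 fragments in the libraries together, whose fragment numbers stand beside the names. Bars are exact 95% counting intervals, black where they leave out 1. Vax2 and Meis2 have ratios of 41.5 and 18.2, Otx2 and Meis1 of 5.56 and 5.06 with narrower bars. Msx2, Cdx4 and Irx2 also lie above 1 with bars that leave it out, and Gbx2 and Pbx4 lie below 1.

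By counting error, 13 of the 41 genes with fragments were higher in the library labelled Eed-/- and 2 (Gbx2 and Pbx4) were lower, while 26 were within it. Of 14503 coding genes with fragments and a single gene of that symbol, 16.8% were higher beyond counting error and 28.2% lower. Among the 6531 of them with under 100 fragments in all, 11.1% were higher and 11.1% lower, and of the 35 homeobox genes among these, 10 were higher and 1 was lower. Besides the 5 genes that rose, the higher genes were Cdx4, Msx2, Irx2, Emx1, Alx1, Pitx1, Prrx1 and Vax1. These calls rest on fragments scaled to depth, and those near the limit depend on the scaling. For genes with several transcripts they also depend on the transcript length used. On the normalized scale the intervals of Pbx4 and Emx1 held 0, and those of Pbx2 and Cdx2 did not. Under 10 fragments in both libraries were counted for 27 of the 47 genes, so for these a difference of several-fold could go undetected. The 6 genes without fragments (Alx4, Dlx2, Dlx5, Dlx6, Emx2 and Irx1) were listed at 0 in both libraries, as 30.0% of all symbols were. A value of 0 in WT alone was found for 6 genes (Alx1, Pitx1, Pitx3, Prrx1, Vax1 and Vsx1) and in the library labelled Eed-/- alone for 2 (Dlx1 and Irx6), beside 4.85% and 4.31% of all symbols. No gene of the 47 had another near-identical place in the genome.

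The nearest annotated coding genes on either side of Vax2, Otx2, Meis1 and Meis2 were looked up to see whether the rises extended to them. Of these 8 neighbours, 0 passed 2-fold. Atp6v1b1, 4.71 kb from Vax2, and Cd207, 33.4 kb away on its other side, were listed at 0 in both libraries. The neighbours of Otx2 changed by -0.02 (Peli2, 397 kb away) and 0.29 (Exoc5, 345 kb away). Those of Meis1 changed by 0.54 (Etaa1, 927 kb away) and -0.11 (Spred2, 905 kb away). BC052040, 84.3 kb from Meis2, changed by -0.17, and Tmco5, 813 kb away, was listed at 0 in both libraries. Neighbours this far away or listed at 0 do not show how far a rise extended along the chromosome. The non-coding Vax2os, which rose by 1.13, was not among these coding neighbours.

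The study's list of genes in mESC DMVs, drawn up from DNA methylation, holds 21 of the 47 genes. Meis1, Meis2 and Otx2 are on it and Vax2 is not. Over the 21 listed genes the median change was 0.27, and over the 26 others it was 0.17. These medians include genes at an FPKM of 0 in both libraries. The filter on low values left 16 genes on the list and 20 off it, with median changes of 0.56 and 0.20. Of the 16, 4 rose, and of the 20, 1 rose. Whether the 2 sets differ was not tested. The share of all symbols on the list is not given here, so 21 of 47 has no background to compare with. Among the other genes on the list are Alx1, Cdx2, Emx1, Gbx2, Irx2, Msx1, Pbx2 and Pitx1. So are Dlx2, Dlx5, Dlx6 and Irx1, which were listed at an FPKM of 0 in both libraries. Genes with a listed DMV thus ranged from the highest WT level, that of Gbx2, to 0.

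Genes whose proteins bind or modify these factors were examined next. Of the 6 other TALE genes and PBX regulators, 0 passed 2-fold, and all 6 had lower values in the library labelled Eed-/- (median -0.27). The largest differences were those of Tgif2 (-0.58), Mkx (-0.46) and Pbxip1 (-0.36). Of the 5 cofactors of LIM-homeodomain proteins, Ssbp4 fell by 1.04 and Ssbp3 fell by 1.01, and Ldb1, the main bridging protein, had a change of -0.59. Ssbp4 lies on chromosome 8. Of the 6 TLE corepressors, 0 passed 2-fold, with the largest differences in Tle4 (-0.97), Tle6 (-0.78) and Tle1 (-0.15). Of the 11 PRC2 genes, Phf19 fell by 1.92, while the catalytic subunit Ezh2 (-0.73) and Aebp2 (0.67) did not pass 2-fold. Of 11 antisense and neighbouring RNAs of these families, 5 had a value and Vax2os rose, followed by Emx2os and Dlx1as, both listed at 0 in WT (0.08 each).

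The signals that induce these genes in embryos were compared too, since BMP, WNT, FGF and retinoic acid act upstream of Msx, Cdx and Meis genes. Of 14 such genes 12 had a mean FPKM of at least 0.1, and 0 passed 2-fold. The largest differences were those of Wnt5a (0.93), Wnt3a (-0.73), from 1.08 to 0.241, and Fgf4 (0.68), from 45.7 to 63.6. Bmp4, at 15.3 and 16.8, and Fgf4 were the signal genes at 2 FPKM or above in both libraries.

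**Figure D4:**
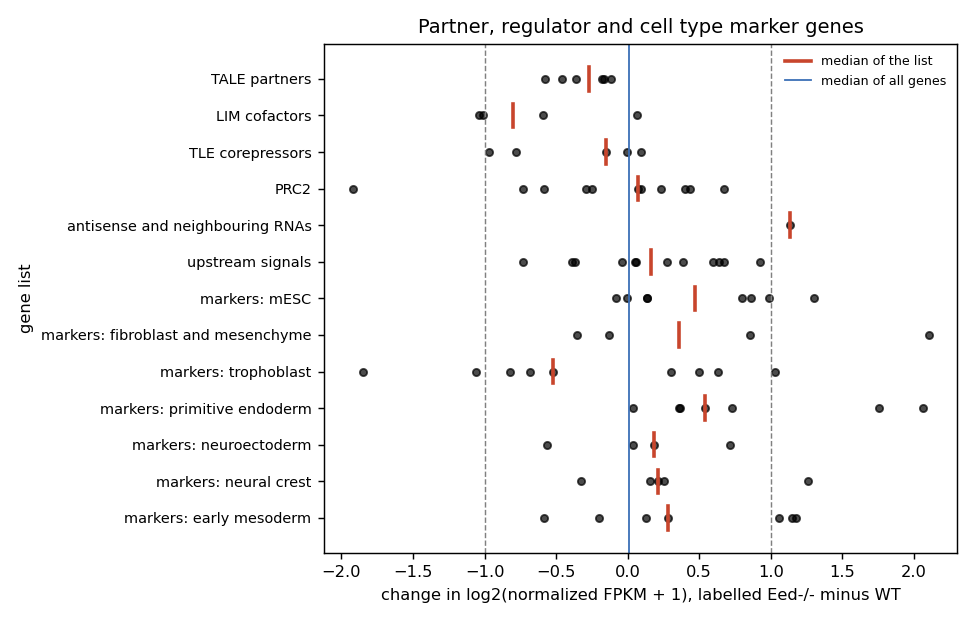
Change in log2(normalized FPKM + 1), the library labelled Eed-/- minus WT, of genes whose mean normalized FPKM was at least 0.1 in lists of partners, regulators and cell type markers. Each point is a gene, the red bar is the median of the list, the blue line the median of all genes and the dashed lines mark 2-fold. The median of the LIM cofactors lies lowest at -0.80, and among marker lists that of primitive endoderm lies highest at 0.54.

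Markers of mESCs and of cells that express these homeobox genes were measured beside them. All 8 mESC markers were at 2 FPKM or above in both libraries, with a summed FPKM of 1286 and 1546, and Zfp42 rose (1.30), ahead of Klf4 (0.99) and Nanog (0.86). Of 7 early mesoderm markers 3 rose (Kdr 1.18, Evx1 1.15 and Gsc 1.06), with sums of 2.14 and 5.82, and all 7 stayed under an FPKM of 2. Mesp1 (0.766 and 0.172, change -0.59) and Mixl1 (0.590 and 0.367, change -0.20) had lower values in the library labelled Eed-/-. Of 8 primitive endoderm markers 2 rose (Lama1 2.06 and Col4a1 1.76, ahead of Gata4 at 0.73). The sums were 15.3 and 56.0, mostly from Lama1 (8.25 and 33.5) and Col4a1 (5.62 and 19.1). Foxa2 had 0.0731 in WT and was listed at 0 in the other library. Of 7 neural crest markers Foxd3 rose (1.26). The list's sums were 6.77 and 15.0, of which Foxd3 alone held 5.67 and 13.6. The defining markers Sox10 (0.328 and 0.0612, change -0.33) and Tfap2a (0.0906 and 0.304, change 0.25) were low. None of 8 neuroectoderm markers passed 2-fold, with sums of 10.1 and 13.7, large differences in Nes (0.71) and Sox1 (-0.56), and Neurog2 and Hes5 listed at 0 in both. Of 10 fibroblast and mesenchyme markers Thy1 rose (2.10), ahead of Twist1 (0.85) and Col1a1 (-0.36). The list's sums were 3.39 and 10.4, of which Thy1 held 0.976 and 6.97. Dcn and Twist2 were listed at 0 in both. Of 10 trophoblast markers Tfap2c (-1.85) and Krt18 (-1.06) fell and Eomes rose (1.03), with sums of 65.4 and 25.6, and Elf5 was listed at 0 in both. In 6 of the 7 marker lists, between 1 and 3 markers thus passed 2-fold beside the 5 homeobox genes, in both directions for the trophoblast list. Foxd3 and Tfap2c already had 5.67 and 39.8 FPKM in WT mESCs, so a change in them does not by itself mark another cell type. Counting intervals are not given for the markers. The part of these markers in the result was not tested.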

How the data were processed

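RNA-seq of WT and Eed-/- mESCs was used, with 1 library per genotype of 32 samples in the series. The other assays were not analysed here. Per the labels, ribosomal RNA was removed from total RNA and second strands were marked with dUTP. The authors aligned the reads to mm9 and computed an FPKM for each gene symbol with Cufflinks, which is what they deposited. The submitters' processing notes name Bowtie2 2.2.2, TopHat2 2.0.11 and Cufflinks 2.2.1, whereas the study's methods name another TopHat version. The annotation, the Cufflinks options and the use of strand are not given in the sources used here. Values of genes with an overlapping gene on the other strand (Dlx1, Dlx4, Dlx6 and Pitx3) are therefore uncertain. For Vax2 and Vax2os an overlap could not be checked.

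Each file lists 24525 values for 24028 symbols. Repeated rows of 268 symbols were summed, and 0 of the 47 genes were among them. The libraries were quantile-normalized, which gives both the same share of symbols above any level. Changes were differences in log2(FPKM + 1), with a pseudocount of 1 and a threshold of 2-fold, over genes whose mean normalized FPKM reached 0.1. Positions came from GENCODE vM1 on NCBIM37, where all 47 genes were matched.

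The files hold no counts. Depth was recovered from low FPKM values of 5053 genes with a single transcript of 1000 bp or more, each length being shortened by 180 bp. Within 0.1 of a whole number of fragments lay 77.7% of 794 low values in WT and 79.5% of 883 in the library labelled Eed-/-. Fragments of genes with several transcripts were computed from the longest coding transcript. Intervals are exact (Poisson and binomial, 95%). The share of all coding genes beyond counting error was computed in the same way. Near-identical copies were sought with minimap2 2.31, with at least 80% of the transcript covered at 95% identity.

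The genes and lists were chosen with earlier results of these data known. Values of each gene with an FPKM of at least 0.1 in either library were printed, the others were named by group, and the 3 largest changes of each list were named. Some genes that these rules name are not reported here, while the counts and medians include them. Of the 4 genes whose promoters were to be shown (the highest level and the largest rise among Pbx and Meis genes and among the others), Pbx2 is shown. Neighbours were named as the nearest coding genes. No test was made. The computations were tested on simulated data. Alternatives were other scalings, pseudocounts, filters and thresholds, symbols listed more than once left out, and changes relative to the chromosome median. Scripts ran in Python 3.11.15 with pandas 2.3.3, numpy 2.4.6, matplotlib 3.10.9 and scipy 1.17.1.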

Additional observations from a re-analysis of the deposited data

How the results depend on the processing

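No paired analysis was possible because each genotype has 1 library and no test was made. The same 5 genes passed 2-fold, and 0 fell, with the FPKM as deposited, with no filter or a mean FPKM of at least 1, with repeated symbols left out, relative to the chromosome median and at 3-fold. With median-ratio scaling Cdx4 joined them. The FPKM as deposited moved the median of all genes to -0.09 and the split of all genes to 455 higher and 801 lower, from 564 and 590, with a median of 0.27 for the 35 homeobox genes that passed the filter, beside 0.29 for 36 in the normalized values. A pseudocount of 0.1 gave 14 higher and 2 lower genes and a median of 0.76, beside 1694 (11.4%) higher and 1778 (12.0%) lower among all genes. A pseudocount of 0.01 gave 17 higher and 5 lower genes and a median of 0.94, beside 1914 (12.9%) and 1989 (13.4%). With it the genes with a few fragments pass 2-fold. A 3-fold threshold gave 152 higher and 137 lower among all genes. With an expressed level of 1 in place of 2, 11 homeobox genes reached it in WT against 16 in the library labelled Eed-/-. The depth limits what can be seen of the 27 genes under 10 fragments in both libraries.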
